A study of Mus musculus with 12 samples.

Results

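The genes described here are 10 that encode proteins of the lipid droplet surface or of droplet formation: the perilipins Plin1, Plin2, Plin3, Plin4 and Plin5, the droplet fusion factors Cidea and Cidec, and the droplet biogenesis factors Fitm1, Fitm2 and Bscl2. They were taken by symbol from a table of 20295 genes, and 9 of the 10 had enough reads to be among the 13543 genes tested. The exception was Fitm1, with 0 to 13 reads in a library. The cells were mature adipocytes from the epididymal white fat (eWAT) of lean male C57/BL6J mice, whose age is not given in the sources used here. They were freed with collagenase, collected by flotation and kept for 2 days in a 3-dimensional hydrogel. There were 4 groups of 3 cultures: vehicle (DMSO), isoproterenol (ISO, a β-adrenergic agonist) for 3 h, lipase inhibitors (Lip), and lipase inhibitors followed by ISO for 3 h (Lip+ISO). Per the methods of the study, the inhibitors were Atglistatin, against the lipase ATGL, and CAY10499, against the lipases HSL and MGL. The figure legend for these cells names SR-3420 as the stimulus, whereas the sample titles and the results text name ISO, which was used here. The labels do not say which cultures came from the same animals. Where cultures share animals, the p-values measure only the spread between cultures. All 4 groups share the isolation and culture, and no group of uncultured cells was analysed here.

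A lipid droplet is a core of triglyceride and sterol ester inside a single layer of phospholipid, and the proteins on that layer decide which lipases reach the core. In fat cells PLIN1 holds ABHD5, the co-activator of ATGL, away from the lipase at rest, and phosphorylation by protein kinase A after β-adrenergic stimulation frees it. PLIN2 and PLIN3 are found in most tissues, PLIN4 is abundant in white fat, and PLIN5 is best known from muscle, liver and brown fat, which burn fatty acids. CIDEA and CIDEC (also called FSP27) pass lipid from smaller to larger droplets, and FITM1, FITM2 and seipin, the product of Bscl2, act in the endoplasmic reticulum where droplets form.

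Library totals ran from 22632220 to 43707557 reads, and levels are given as CPM, the reads of a gene per 1000000 reads, after TMM scaling, which corrects for differences in library composition. Marker genes of adipocytes summed to 33100 to 40700 CPM with DMSO, 29300 to 38200 with ISO, 31400 to 36200 with Lip and 27500 to 38200 with Lip+ISO, and all 10 were detected in each group. Of these 10, 3 (Lep, Pparg and Acvr1c) were lower with ISO than with DMSO, 3 (Lep, Lipe and Acvr1c) were lower with Lip+ISO than with Lip, and between Lip+ISO and ISO 1 was higher and 1 lower. Marker genes of macrophages summed to 52.5 to 66.8 CPM with DMSO, 112 to 166 with ISO, 56.2 to 62.3 with Lip and 71.9 to 124 with Lip+ISO, and 7 of the 10 passed the test as higher with ISO than with DMSO and 3 as higher with Lip+ISO than with Lip. Marker genes of fibroblasts summed to 366 to 646, 715 to 937, 486 to 510 and 441 to 612 CPM in the same order of groups, with 3 of 6 higher with ISO than with DMSO and 3 of 6 lower with Lip+ISO than with ISO. Endothelial markers summed to 102 to 195, 182 to 354, 55.2 to 176 and 74.7 to 222 CPM, with none past the test. Mesothelial markers summed to 21 to 46.8, 55.4 to 65.9, 12.8 to 54.7 and 37.3 to 46.2 CPM. Of the 5 mesothelial markers, 1 (Wt1) was higher with ISO than with DMSO and with Lip+ISO than with Lip. Muscle markers summed to 94.7 to 141, 53.5 to 104, 126 to 281 and 49.8 to 87.4 CPM, nearly all from Acta1 (group means of 73 to 188 CPM). Myh6, Myh1, Ckm and Tnnt3 had group means of at most 0.116 CPM and were not tested. Acta1 was lower with Lip+ISO than with Lip (log2 -1.36 ± 0.32, edgeR adjusted p = 0.00635). None of these lists had a gene of the table at 0 in all libraries of a group. For comparison with these counts, 12.3% of all tested genes passed as higher and 13.9% as lower in ISO against DMSO. The shares were 4.36% and 4.59% in Lip+ISO against ISO, and 11.5% and 15.8% in Lip+ISO against Lip.

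The 10 genes together took 0.797 to 1.33% of all reads in a library. Their share was 1.15 to 1.33% with DMSO, 1.14 to 1.32% with ISO, 0.982 to 1.19% with Lip and 0.797 to 0.876% with Lip+ISO, so the 3 cultures with Lip+ISO lay below the 9 others. To compare genes with each other, levels were divided by the counted transcript length. Per kilobase, averaged over the 12 libraries, Cidec stood at 1780 CPM (rank 14 of the 13543 tested genes), Plin1 at 1600 (rank 19), Plin2 at 879 (rank 44) and Plin4 at 452 (rank 108). Bscl2 followed at 163 (rank 424), Fitm2 at 160 (rank 431), Plin3 at 35.3 (rank 2298), Plin5 at 15.9 (rank 4411) and Cidea at 3.51 (rank 8624). The order was thus led by the classical white fat coat genes, with the genes best known from oxidative tissues at the low end. The order of Cidec and Plin1 varied with the group. With ISO all 3 cultures had more Cidec (2240 ± 558 CPM per kb, SD, n = 3) than any had Plin1 (1600 ± 215), whereas in the 3 other groups the ranges of both genes overlapped, and with Lip the mean of Plin1 (1630 ± 172) was above that of Cidec (1560 ± 456). Bscl2 and Fitm2 were likewise close, at 168 ± 15.7 and 182 ± 11.8 CPM per kb with DMSO.

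**Figure D1:**
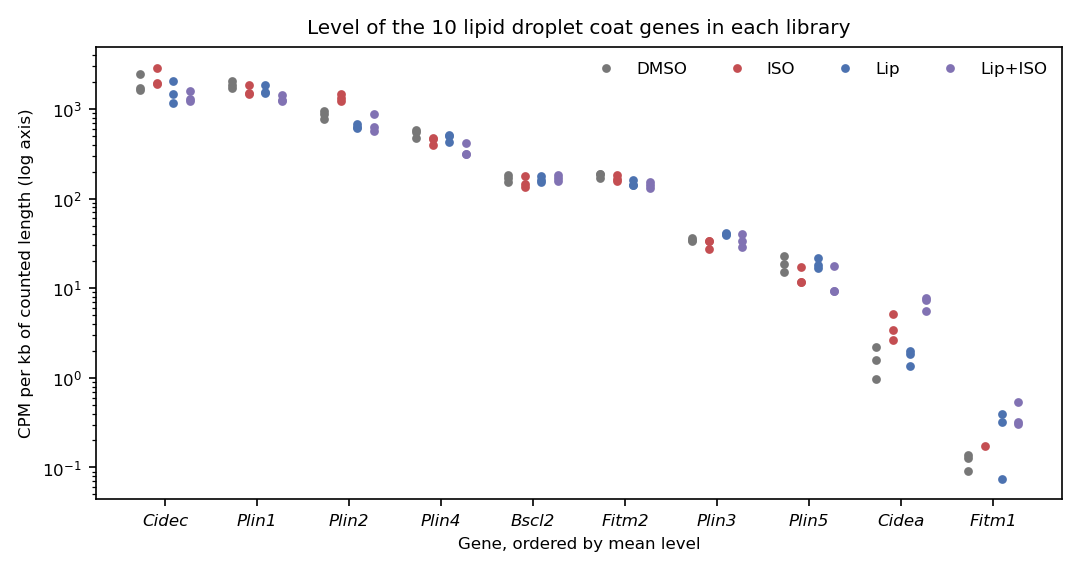
Level of each of the 10 genes in CPM per kilobase of counted length (log axis), 1 point per library, coloured by group, with genes ordered by their mean. Cidec, Plin1, Plin2 and Plin4 form the top of the order and Cidea and Fitm1 the bottom. The 2 ISO libraries with no Fitm1 read have no point on the log axis.

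In bulk RNA, fewer cells of a type and less RNA per cell cannot be told apart, and this holds for every difference below. Differences between 2 groups are log2 fold changes ± SE from an edgeR quasi-likelihood fit of all 12 libraries. The p-values were adjusted over all 13543 genes by the Benjamini-Hochberg method, and a gene whose adjusted p did not exceed 0.05 passed. The comparisons share groups: DMSO is the reference of 2 of them, and ISO, Lip and Lip+ISO each stand in 2.

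Plin2, the perilipin that coats droplets in most cell types, rose with ISO when lipases were active and stood lower in the presence of the inhibitors. With DMSO it was at 1460, 1670 and 1780 CPM in replicates 1 to 3, and with ISO at 2290, 2470 and 2730 CPM. With Lip it was at 1150, 1280 and 1170 CPM, and with Lip+ISO at 1660, 1170 and 1070 CPM. All 3 ISO cultures lay above all 9 others, and the Lip cultures lay below all DMSO cultures. In Lip+ISO, replicates 2 and 3 lay within the range of Lip or below it, whereas replicate 1 lay within the range of DMSO.

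The rise of Plin2 with ISO was 1.53-fold (log2 0.61 ± 0.15, edgeR adjusted p = 0.00881). With ISO present, the inhibitors lowered Plin2 to 0.52 of its level (log2 -0.94 ± 0.15, edgeR adjusted p = 0.00162). Both calls held when any of the 12 libraries was left out, with log2 values of 0.53 to 0.67 and of -1.16 to -0.81. With inhibitors present, Lip+ISO and Lip differed by log2 0.11 ± 0.15 (edgeR adjusted p = 0.639). Without ISO, the difference between Lip and DMSO was log2 -0.45 ± 0.15 (edgeR adjusted p = 0.768). The test of the interaction, the ISO response with inhibitors minus that without, gave log2 -0.50 ± 0.21 (edgeR adjusted p = 0.303), so the 2 ISO responses of Plin2 were not shown to differ. Without Lip+ISO replicate 1 the interaction was -0.71 ± 0.15 (edgeR adjusted p = 0.0288), and in the other 11 fits that left out a library it did not pass. Macrophages and other cell types also express Plin2, and the summed macrophage and fibroblast markers given above were likewise highest with ISO. Their part in the change of Plin2 was not tested.

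A measure that does not depend on the scaling is the ratio of 2 genes within a library. The ratio of Plin2 to Plin1, per length, was 0.373, 0.524 and 0.511 with DMSO, and 0.655, 0.891 and 0.971 with ISO. It was 0.334, 0.44 and 0.409 with Lip, and 0.719, 0.493 and 0.4 with Lip+ISO. Relative to Plin1, Plin2 was thus higher in all 3 ISO cultures than in any DMSO culture, while 2 of the 3 Lip+ISO cultures lay above the range of Lip. The ratio moves with Plin1 too, whose CPM in each Lip+ISO culture lay below every other culture (mean 2410, against 3030 with Lip). In Lip+ISO replicate 2 the ratio was above the Lip range, while Plin2 itself, at 1170 CPM, was within it.

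**Figure D2:**
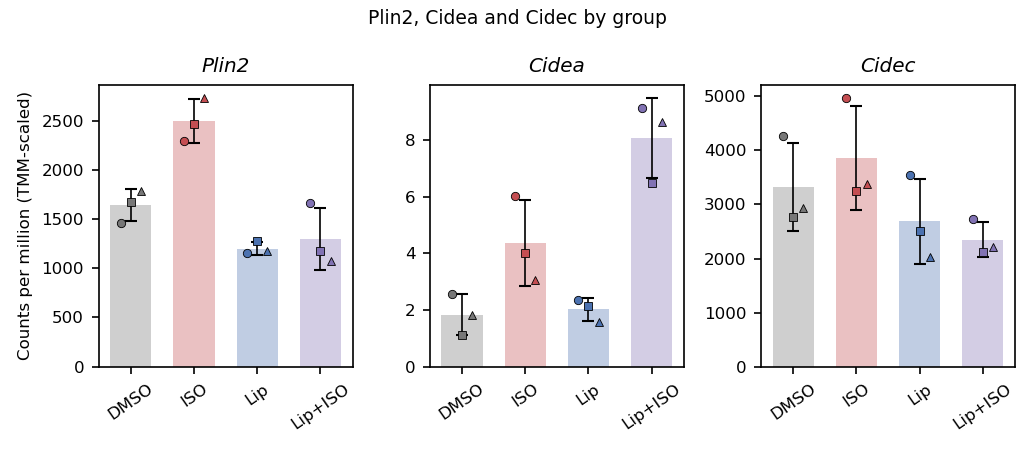
CPM of Plin2, Cidea and Cidec in each group. Bars are group means, error bars are SD (n = 3), and circles, squares and triangles are replicates 1, 2 and 3. Plin2 was highest with ISO alone (2500 ± 224 CPM), Cidea was highest with Lip+ISO (8.09 ± 1.41 CPM), and replicate 1 was highest for Cidec in every group.

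The Plin2 transcript counted (NM_007408) lies on mm9 chromosome 4 from 86302469 to 86315963, on the minus strand. Its RefSeq promoter, from 250 bases before the start to 50 after it (GRCm38.p6, chr4:86670010-86670309, minus strand), is shown because Plin2 was the member that passed between ISO with and without inhibitors. The promoter of Plin4 (GRCm38.p6, chr17:56109733-56110032, minus strand) is shown beside it as that of the other perilipin with a called change, a lower level with Lip+ISO than with Lip. Capitals mark CACGTG, an E-box, and CCAAT or its reverse complement ATTGG.
Plin2: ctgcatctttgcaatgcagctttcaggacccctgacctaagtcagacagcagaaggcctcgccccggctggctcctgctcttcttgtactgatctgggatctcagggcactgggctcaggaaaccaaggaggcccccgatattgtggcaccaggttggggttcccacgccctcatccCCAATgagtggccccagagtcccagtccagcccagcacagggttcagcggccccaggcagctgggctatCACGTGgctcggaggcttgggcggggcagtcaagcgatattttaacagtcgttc
Plin4: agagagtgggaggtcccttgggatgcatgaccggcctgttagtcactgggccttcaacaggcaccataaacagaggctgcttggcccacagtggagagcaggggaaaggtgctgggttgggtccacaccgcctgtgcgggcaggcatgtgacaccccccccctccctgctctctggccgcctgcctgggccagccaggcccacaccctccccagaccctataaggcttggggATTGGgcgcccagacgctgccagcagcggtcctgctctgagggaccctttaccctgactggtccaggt
The Plin2 promoter holds CACGTG 4 bases before the start and CCAAT 73 bases before it, and the Plin4 promoter holds ATTGG 18 bases before its start. Of 32851 promoters of this length, 7.15% hold CACGTG and 37.4% hold CCAAT on either strand. These 2 words were added after the sequences had been read.

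Each of the 13 RefSeq promoters of 9 of the genes was searched on both strands for DR1, the PPAR element (AGGTCA repeated in the same direction with 1 base between), for the cAMP response element TGACGTCA, and for its short form TGACG. The gene left out was Cidea, for which the source held no promoter, so the search does not cover it. The short form was the single match, in the Fitm1 promoter 173 bases before the start. Among all 32851 promoters, 0.0396% hold an exact DR1, 0.554% a DR1 with at most 1 mismatch in all, 1.79% TGACGTCA and 20.8% TGACG. A match or its absence describes these letters only.

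Cidea, a droplet fusion factor and a familiar marker of brown and beige fat, was the least abundant of the tested members, and it rose with ISO both without and with the inhibitors. Its level was 2.56, 1.13 and 1.84 CPM with DMSO, 6.03, 4 and 3.07 with ISO, 2.34, 2.16 and 1.58 with Lip, and 9.14, 6.49 and 8.66 with Lip+ISO. These levels rest on 27 to 226 reads per library. All ISO cultures lay above all DMSO cultures and all Lip+ISO cultures lay above all others. The summed macrophage and fibroblast markers had their highest values with ISO alone, but 3 of the 10 macrophage markers and 1 of the 5 mesothelial markers were also higher with Lip+ISO than with Lip, as Cidea was. The part of other cell types in the change of Cidea was not tested.

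The rise of Cidea was 2.34-fold without inhibitors (log2 1.23 ± 0.32, edgeR adjusted p = 0.0136) and 4-fold with them (log2 2.00 ± 0.32, edgeR adjusted p = 4.0e-04). Without ISO replicate 1 the first of these was log2 0.93 ± 0.32 (edgeR adjusted p = 0.054), whereas the second held in all 12 fits that left out a library. Between Lip+ISO and ISO the difference was log2 0.89 ± 0.30 (edgeR adjusted p = 0.0938), which did not pass. It passed when ISO replicate 1 was left out (log2 1.18 ± 0.32, edgeR adjusted p = 0.0465) and in a DESeq2 Wald test (log2 0.91, adjusted p = 0.0306). The interaction of Cidea was log2 0.77 ± 0.44 (edgeR adjusted p = 0.485). The inhibitors alone gave log2 0.12 ± 0.32 (edgeR adjusted p = 1). The gene lies on mm9 chromosome 18 from 67503218 to 67527448.

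Cidec, the fusion factor of white fat, had the highest mean level per length of the members over the 12 libraries. It passed in no comparison by edgeR with TMM scaling and replicate numbers left out of the model. Its level was 4260, 2770 and 2940 CPM with DMSO, 4970, 3250 and 3370 with ISO, 3550, 2500 and 2020 with Lip, and 2730, 2120 and 2210 with Lip+ISO. Replicate 1 was the highest in each group, and the Lip+ISO cultures lay below all 3 ISO cultures. Between Lip+ISO and ISO the difference was log2 -0.71 ± 0.23 (edgeR adjusted p = 0.0776), and it passed in a DESeq2 Wald test (log2 -0.69, adjusted p = 0.0204). It also passed with library totals alone (log2 -0.74 ± 0.21, edgeR adjusted p = 0.0463) and with replicate numbers in the model as a block. The numbers were not taken as pairs in this comparison. The direction of the Cidec point value was opposite to that of Cidea, and the difference between both genes was not tested. The ISO response of Cidec without inhibitors was log2 0.22 ± 0.23 and that with inhibitors log2 -0.19 ± 0.23, with edgeR adjusted p-values of 0.515 and 0.603.

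Plin4, the perilipin abundant in white fat, fell with ISO when the inhibitors were present. It was at 3180, 2700 and 3380 CPM with DMSO, 2700, 2290 and 2640 with ISO, 2950, 2480 and 2880 with Lip, and 1800, 1820 and 2370 with Lip+ISO. All Lip+ISO cultures lay below all Lip cultures, while Lip+ISO replicate 3 overlapped the ISO range. The change between Lip+ISO and Lip was log2 -0.47 ± 0.13, or 0.72 of the Lip level (edgeR adjusted p = 0.0157). The call was lost without Lip replicate 1, Lip replicate 3, Lip+ISO replicate 1 or Lip+ISO replicate 2, with edgeR adjusted p-values of 0.0678, 0.0544, 0.0565 and 0.0705 and log2 values of -0.41, -0.45, -0.41 and -0.41. Between Lip+ISO and ISO the difference was log2 -0.35 ± 0.13 (edgeR adjusted p = 0.121), and without Lip+ISO replicate 3 it was log2 -0.48 ± 0.12 (edgeR adjusted p = 0.0435). The ISO response without inhibitors was log2 -0.28 ± 0.13 (edgeR adjusted p = 0.132), and it passed once replicate numbers entered the model as a block (the replicate block) (log2 -0.28 ± 0.08, edgeR adjusted p = 0.0212). The interaction of Plin4 was log2 -0.19 ± 0.18 (edgeR adjusted p = 0.698), so its ISO responses with and without inhibitors were not shown to differ. The adipocyte markers Lep, Lipe and Acvr1c were lower in the same comparison of Lip+ISO with Lip, and the part of adipocyte content in the change of Plin4 was not tested.

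Plin4 lies on the minus strand of mm9 chromosome 17 from 56240014 to 56249225, 1798 bases from Plin5 (56251024 to 56256971, same strand), and Plin3 lies 161 kb further on (56418385 to 56429934, same strand). The neighbours did not share a level: Plin5 and Plin3 were at 15.9 and 35.3 CPM per kb on average, against 452 for Plin4. An end of Plin4 overlaps Hdgfrp2 on the other strand, and Bscl2 overlaps Gng3 (2 to 21 reads per library). Since no source used here says that the counting used strand, reads in these overlaps cannot be assigned with certainty.

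Plin1, the perilipin that controls access of ABHD5 to ATGL, did not pass in the TMM-scaled fit of all 12 libraries without a block. Its point values there were negative in all 4 comparisons. With library totals alone it passed in ISO against DMSO, Lip+ISO against ISO and Lip+ISO against Lip (edgeR adjusted p = 0.0496, 0.0381 and 0.00268). It was at 3850, 3140 and 3430 CPM with DMSO, 3440, 2730 and 2770 with ISO, 3400, 2870 and 2830 with Lip, and 2270, 2340 and 2630 with Lip+ISO. The Lip+ISO cultures lay below every culture of the 3 other groups. The difference from Lip was log2 -0.33 ± 0.12 (edgeR adjusted p = 0.0623), without ISO replicate 1 it was log2 -0.33 ± 0.10 (edgeR adjusted p = 0.0352), and with the replicate block it was log2 -0.32 ± 0.09 (edgeR adjusted p = 0.0173). The difference from ISO was log2 -0.31 ± 0.12 (edgeR adjusted p = 0.146).

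Plin5, best known from tissues that oxidise fatty acids, was at 44.6, 29.4 and 35.8 CPM with DMSO, 33.3, 22.5 and 22.9 with ISO, 42.4, 32.9 and 34.9 with Lip, and 34.3, 18.2 and 18.2 with Lip+ISO. Replicate 1 was the highest in each group and the groups overlapped, but each culture with ISO was lower than the culture of the same number without it. The ISO response was log2 -0.49 ± 0.25 without inhibitors and log2 -0.64 ± 0.25 with them (edgeR adjusted p = 0.162 and 0.0726). With the replicate block both passed, at log2 -0.49 ± 0.11 (edgeR adjusted p = 0.0053) and log2 -0.69 ± 0.11 (edgeR adjusted p = 5.1e-04). Without Lip+ISO replicate 1 the second was log2 -1.02 ± 0.21 (edgeR adjusted p = 0.00325).

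Plin3, a perilipin of most tissues, ranged from 58.7 to 88.1 CPM. Its group means were 75.6 ± 2.55 with DMSO, 68.2 ± 8.26 with ISO, 86.5 ± 1.49 with Lip and 74.1 ± 12.5 with Lip+ISO (SD, n = 3), and it passed in no comparison. Without Lip+ISO replicate 1, which was its highest in that group, the difference between Lip+ISO and Lip was log2 -0.36 ± 0.10 (edgeR adjusted p = 0.0217), against -0.22 ± 0.11 (adjusted p = 0.177) with all libraries.

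**Figure D3:**
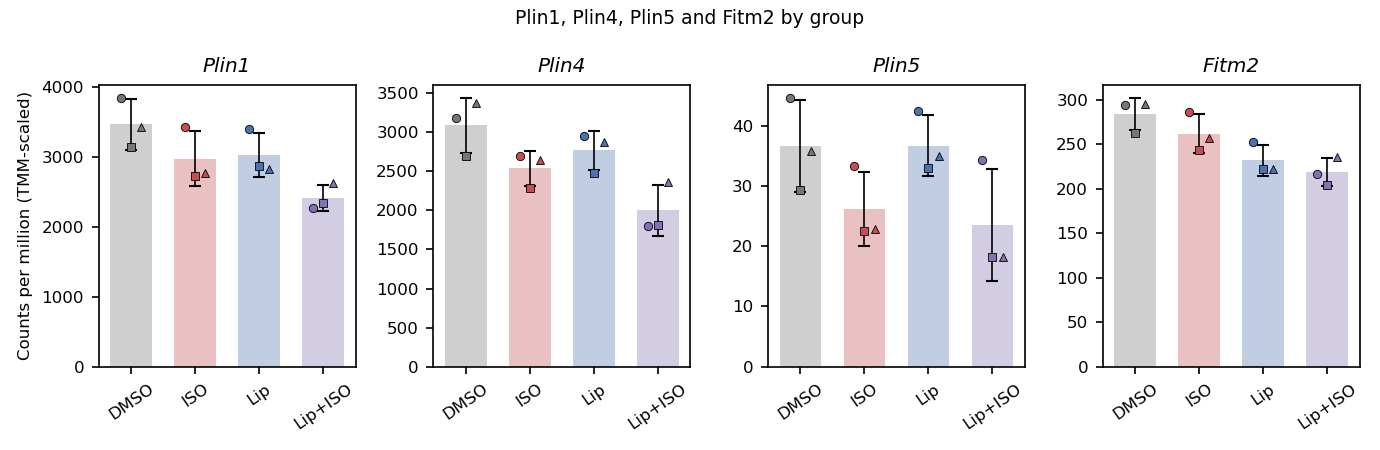
CPM of Plin1, Plin4, Plin5 and Fitm2 in each group. Bars are group means, error bars are SD (n = 3), and circles, squares and triangles are replicates 1, 2 and 3. The mean is lowest with Lip+ISO for each of the 4 genes (2410, 2000, 23.5 and 219 CPM). In the main fit, without a replicate block, that between Lip+ISO and Lip for Plin4 was the difference that passed. With the block, Plin4 and Plin5 also passed in ISO against DMSO, and Plin1 and Plin5 in Lip+ISO against Lip. Plin1, Plin4 and Fitm2 passed with it in Lip+ISO against ISO.

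Fitm2 and Bscl2, the tested biogenesis genes, had the narrowest ranges over the 12 libraries (1.45-fold and 1.36-fold). Fitm2, which partitions triglyceride into forming droplets, was at 294, 263 and 296 CPM with DMSO, 286, 244 and 257 with ISO, 253, 222 and 222 with Lip, and 217, 204 and 236 with Lip+ISO. The 6 cultures with inhibitors lay below all DMSO cultures. The difference between Lip and DMSO was log2 -0.29 ± 0.09 (edgeR adjusted p = 0.69), and that between Lip+ISO and ISO was log2 -0.26 ± 0.09 (edgeR adjusted p = 0.0982). Bscl2, the seipin gene, ranged from 210 to 286 CPM, with log2 fold changes between -0.14 and 0.16 in the 4 comparisons. Fitm1, known mainly from muscle, had 4, 2 and 3 reads with DMSO, 0, 7 and 0 with ISO, 2, 9 and 13 with Lip, and 12, 8 and 7 with Lip+ISO. The 2 libraries with 0 reads allow up to 0.132 and 0.13 CPM (3 reads), a limit that covers counting error only, and at these counts no difference was tested.

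**Figure D4:**
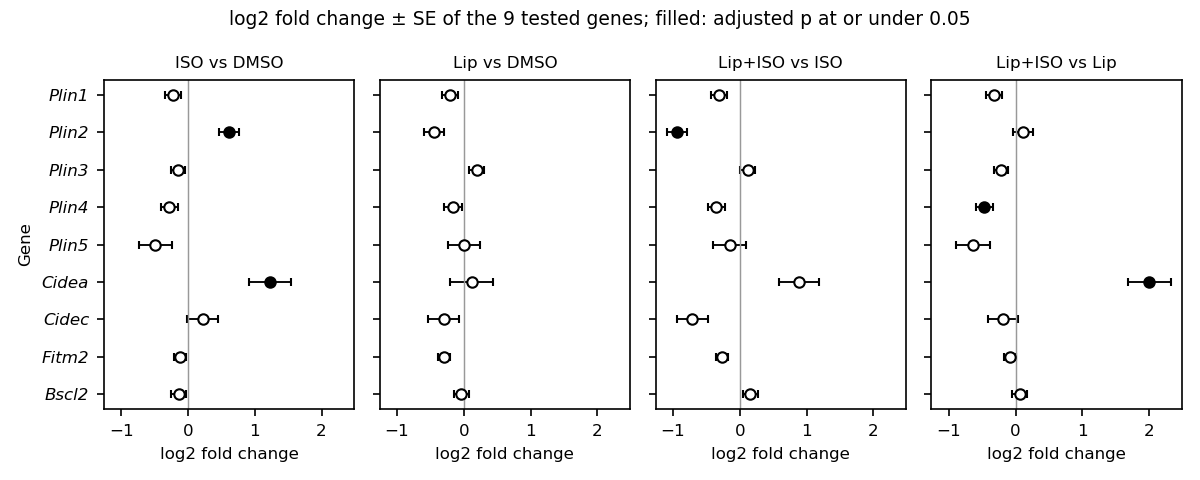
log2 fold change ± SE from edgeR of the 9 tested genes in the 4 comparisons of 2 groups. Filled points passed the test in the main fit, without a replicate block: Plin2 and Cidea higher with ISO than with DMSO, Plin2 lower with Lip+ISO than with ISO, and Cidea higher and Plin4 lower with Lip+ISO than with Lip.

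Counted over the 9 tested members by edgeR, ISO raised 2 (Plin2 and Cidea) and lowered 0 relative to DMSO, where 12.3% of all tested genes passed as higher and 13.9% as lower. The inhibitors alone moved 0 members in either direction by edgeR and 0 by DESeq2, and of all genes 0.00738% passed as higher and 0.0443% as lower. Plin2 and Fitm2 (2 members) had an unadjusted edgeR p under 0.05, as had 582 of the 13543 tested genes. With ISO present, the inhibitors raised 0 and lowered 1 (Plin2), against 4.36% and 4.59% of all genes. There, 6 members had an unadjusted edgeR p under 0.05 (Cidea higher, and Plin1, Plin2, Plin4, Cidec and Fitm2 lower), as had 3230 of the 13543 tested genes. With inhibitors present, ISO raised 1 (Cidea) and lowered 1 (Plin4), against 11.5% and 15.8% of all genes. With the replicate block, 4 members passed in ISO against DMSO (Plin4 and Plin5 in addition, both lower) and 4 in Lip+ISO against Lip (Plin1 and Plin5 in addition, both lower). In Lip+ISO against ISO, 6 passed with it (in addition Cidea higher, and Plin1, Plin4, Cidec and Fitm2 lower). The share of all genes that passed with the block is not given here. The interaction passed for 0 members by edgeR and by DESeq2, and for 0.901% of all genes upward and 0.724% downward. Plin2 alone had an unadjusted edgeR p under 0.05 for it, as had 1868 of the 13543 tested genes. The median log2 fold change of the 9 members was -0.14, -0.16, -0.26, -0.19 and -0.11 in the same order, where the median of all genes was between -0.02 and 0.00. In each of the 5, the values of 6 of the 9 members were negative, although with library totals alone Bscl2 changed sign in Lip+ISO against Lip and Fitm2 in the interaction.

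The proteins that work with the coat at the lipase step were described from a list of 9 genes, all tested, of which Fabp4 and Lipe are also among the adipocyte markers. Relative to DMSO, ISO raised 2 of them (Hilpda and Abhd5) and lowered 1 (G0s2), where 12.3% of all tested genes passed as higher and 13.9% as lower. HILPDA and G0S2 are inhibitors of ATGL, and ABHD5 is its co-activator. Hilpda was at 24.2 ± 3.84 CPM with DMSO and 271 ± 36 with ISO (log2 3.49 ± 0.18, edgeR adjusted p = 7.8e-08), while G0s2 was at 463 ± 54.3 and 136 ± 30.4 (log2 -1.76 ± 0.36, edgeR adjusted p = 0.00354). Abhd5 was at 275 ± 13.3 and 344 ± 15.6 CPM (log2 0.32 ± 0.10, edgeR adjusted p = 0.0338).

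With ISO present, the inhibitors lowered 3 of the 9 and raised 0, against 4.59% and 4.36% of all tested genes. Hilpda was at 150 ± 13.9 CPM with Lip+ISO (log2 -0.86 ± 0.16 against ISO, edgeR adjusted p = 0.00575), G0s2 at 40.6 ± 27.3 (log2 -1.75 ± 0.37, edgeR adjusted p = 0.0102), and Lipe, which encodes HSL, at 1490 ± 97.3 against 2340 ± 454 with ISO (log2 -0.65 ± 0.15, edgeR adjusted p = 0.0165). Hilpda therefore shared with Plin2 a rise with ISO and a lower level when the inhibitors were added to ISO. With inhibitors present, Hilpda rose with ISO as well (log2 3.36 ± 0.18, edgeR adjusted p = 4.1e-08). The difference between the responses of Hilpda and Plin2 was not tested. Pnpla2, which encodes ATGL, passed in no comparison, with group means of 2610 to 3340 CPM. In Lip+ISO against Lip, 2 of the 9 were higher and 2 lower, against 11.5% and 15.8% of all tested genes. In Lip against DMSO and in the interaction 0 of the 9 passed by edgeR. The list's median log2 fold change was -0.16, -0.17, 0.00, -0.01 and 0.10 in the 5 comparisons, where the median of all genes was between -0.02 and 0.00.

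Of 25 other genes for lipid droplet proteins, 23 were tested. ISO raised 4 and lowered 4 relative to DMSO, the inhibitors raised 1 and lowered 2 in the presence of ISO, and ISO raised 6 and lowered 3 in the presence of inhibitors. Of all tested genes, 12.3% passed as higher and 13.9% as lower in the first of these comparisons. The shares were 4.36% and 4.59% in the second, and 11.5% and 15.8% in the third. In Lip against DMSO and in the interaction, 0 of the 23 passed by edgeR. The list's medians were -0.06, -0.04, 0.04, 0.00 and 0.04. Dgat2, which makes triglyceride, was at 362 ± 23.4 CPM with DMSO, 527 ± 51.1 with ISO, 331 ± 56.7 with Lip and 349 ± 44 with Lip+ISO. It rose with ISO (log2 0.54 ± 0.13, edgeR adjusted p = 0.00902) and was lower with Lip+ISO than with ISO (log2 -0.59 ± 0.13, edgeR adjusted p = 0.0129), as Plin2 was. Agpat9, an acyltransferase of the same pathway, went from 748 ± 84.2 CPM with ISO to 453 ± 58.7 with Lip+ISO (log2 -0.72 ± 0.11, edgeR adjusted p = 0.0017). Mettl7b, a droplet-associated methyltransferase, went the other way, from 44.9 ± 5.31 to 89.1 ± 8.6 CPM (log2 0.99 ± 0.23, edgeR adjusted p = 0.0165), the direction of the Cidea point value. Cideb, the third gene of the CIDE family, had a mean of 0.0341 to 0.132 CPM in the groups and was not tested.

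The members did not form a single pattern across the 12 libraries. As a description, with groups, depth and scaling shared by the points, the Pearson r of log2 CPM was 0.89 for Plin1 and Plin4, 0.87 for Plin1 and Fitm2, 0.77 for Cidec and Fitm2, and -0.71 for Plin4 and Cidea. Plin1 and Plin2 had an r of 0.11. Among all tested genes, those most like Plin2 were Eef1e1 (r = 0.955), Atp6v0a1 (0.951) and Msantd3 (0.943). Those most like Cidea were Sbds (0.973), Sar1b (0.967) and Ddx3y (0.965), and those most like Cidec were Gpd1 (0.977), Caprin1 (0.944) and A530016L24Rik (0.932).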

How the data were processed

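RNA was sequenced from 12 cultures, 4 groups of 3, and groups and replicate numbers were read from the sample titles. The deposited values are raw read counts per gene, made by the authors by alignment to mm9 with STAR (2.4.2a), HOMER, with 1 read kept per position and length, and iRNA-seq, and the table also gives the deposited counted length of each gene, read here as another value in base pairs. The totals per library set the precision: 3 reads, the upper limit for a count of 0, equal 0.0678 to 0.132 CPM. The members and gene lists were chosen with earlier results of these data known.

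The analysis used edgeR 4.0.16 (R 4.3.3). The filter filterByExpr kept 13543 of 20295 genes, TMM factors ran from 0.924 to 1.07, and a quasi-likelihood model with a mean for each group covered all 12 libraries (two-sided F-test, Benjamini-Hochberg adjustment over all kept genes). The common dispersion corresponded to a coefficient of variation of 0.163. The log2 CPM values used for correlations had a prior count of 2. On simulated counts for ISO against DMSO (13348 genes kept), the fit called 31.3% of genes changed by 0.5, 67.7% of those changed by 1 and 87.5% of those changed by 2 on the log2 scale. Alternatives were DESeq2 1.42.0, its size factors, library totals alone, no filter, a replicate block, only the groups compared, and each library left out. The labels do not say what a replicate number marks. The study gives 3 independent experiments but does not say whether a number marks the same experiment in all 4 groups. Deviations from the group means correlated over 0.1 in all 3 same-numbered pairs of ISO and DMSO (0.30, 0.33 and 0.14), of Lip and DMSO (0.34, 0.37 and 0.20) and of Lip+ISO and Lip (0.19, 0.30 and 0.23), so the numbers were taken as pairs there and blocked values are given where a call changed. They did not for Lip+ISO and ISO (0.10, 0.31 and 0.04). The pairs enter the blocked values only, and the main test left the numbers out of the model in every comparison. The cut on the correlations was a rule for reporting. Since the comparisons share the same 12 libraries, it cannot settle whether the numbers mark pairs. Libraries of a group differed by far more than sampling noise, so none was a duplicate. All members, the genes of 2 fixed lists that passed in Lip+ISO against ISO, Pnpla2, Lipe, Abhd5, G0s2, Hilpda and Cideb, and the 3 genes most correlated with each of Plin2, Cidea and Cidec were named. Promoter sequences are from RefSeq (GRCm38.p6).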

Additional observations from a re-analysis of the deposited data

How the results depend on the processing

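The rise of Plin2 with ISO, its lower level with Lip+ISO than with ISO, and the rise of Cidea with ISO under inhibitors kept direction and passed in every alternative fit. The number of members past the test moved more. With a log2 size of at least 1 also required it was 1, 0, 0, 1 and 0 for ISO against DMSO, Lip against DMSO, Lip+ISO against ISO, Lip+ISO against Lip and the interaction. With library totals alone it was 4, 0, 5, 5 and 0, and this scaling moved the median of all genes to -0.12 in Lip+ISO against Lip and the share of calls that were higher from 42.2% to 26.5% there and from 47.1% to 37% in ISO against DMSO. DESeq2 called 3 members in Lip+ISO against ISO. With a replicate block the counts were 4, 0, 6, 4 and 0, and the block added Plin4 and Plin5 in ISO against DMSO, Plin1, Plin4, Cidea, Cidec and Fitm2 in Lip+ISO against ISO, and Plin1 and Plin5 in Lip+ISO against Lip. It changed no other member's call, and the share of all genes that passed with it is not given here. For Lip+ISO against ISO the numbers were not taken as pairs, although all 12 libraries correlated best with their own number, a hint from the data and not part of the design. Leaving out each library in turn gave counts of 1 to 2 in ISO against DMSO and in Lip+ISO against ISO, 1 to 3 in Lip+ISO against Lip and 0 to 1 in the interaction.

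Values near 0 that did not pass changed sign. Leaving out a library gave ranges of -0.01 to 0.44 for Cidec in ISO against DMSO, -0.14 to 0.17 for Plin5, -0.14 to 0.44 for Cidea and -0.12 to 0.03 for Bscl2 in Lip against DMSO, -0.02 to 0.23 for Plin3 and -0.53 to 0.05 for Plin5 in Lip+ISO against ISO, and -0.10 to 0.25 for Plin2 and -0.36 to 0.07 for Cidec in Lip+ISO against Lip. For the interaction they were -0.19 to 0.01 for Plin1, -0.21 to 0.05 for Plin3, -0.53 to 0.05 for Plin5 and -0.02 to 0.11 for Fitm2. Library totals alone gave -0.05 for Bscl2 in Lip+ISO against Lip and -0.04 for Fitm2 in the interaction, and no filter gave 0.00 for Plin5 in Lip against DMSO. The cause was not tested. Depth limits Cidea and Fitm1 most, with at most 226 and 13 reads in a library.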
